A study of Mus musculus with 6 samples.

Results

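The genes examined here were the 44 collagen chain genes whose symbols consist of Col, a type number, the letter a and a chain number, out of 56980 genes listed for every library. They were followed across cell classes of mouse white fat in 3 groups of 2 single-nucleus libraries each, all from female C57BL/6J mice. SAT_2M was subcutaneous (inguinal) fat labelled as 2 months old, SAT_24M was the same depot labelled as 24 months old, and VAT_24M was visceral (gonadal) fat labelled as 24 months old. No treatment or engineered allele was given for any group, and the study's text gives another age for the aged mice than the labels, which were followed here. The labels give adipocytes as the cell type of all libraries although whole-depot nuclei were sequenced, and visceral fat of young mice was not used here.

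Collagens are proteins of the extracellular matrix in which 3 chains wind into a triple helix. Fibrillar chains build the tensile fibres of connective tissue, whereas type IV chains form the sheet of the basement membrane, a thin layer that surrounds every adipocyte and every capillary. Type VI chains form beaded filaments that link cells to this layer, types XV and XVIII lie within basement membrane zones, and FACIT chains sit on the surface of fibrils. In fat, fibro-adipogenic progenitors (FAPs) are the classical source of fibrillar collagen.

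The libraries held 6158 to 11341 deposited barcodes and 8061862 to 16226690 UMIs (unique transcript molecules) each. In all, 27074 nuclei had over 1000 UMIs, over 500 genes and under 15% mitochondrial UMIs, 2490 to 5776 per library, with medians of 1380 to 1878 UMIs. Pairs of libraries shared 29 to 61 barcodes, 0.420% to 0.769% of the smaller library. Nuclei were clustered without the collagen genes and named from marker genes, and the class names below mean nuclei that resemble that type. The adipocyte class held 7321 nuclei and its 8 markers were all detected in every library, with a summed level of 12002 to 13810 counts per 1000000 UMIs (CPM). The FAP class held 1415 nuclei, the endothelial class 674, the immune class 9201, the epithelial class 1220 and the mesothelial class 466. VAT_24M replicate 2 stood apart. It held only 157 adipocyte nuclei, against 2898 in VAT_24M replicate 1, and it held 444 nuclei with oviduct secretory markers, against 0 to 4 in each other library, and 268 with markers of steroid-making ovary cells, against 1 to 20. Its FAP class had summed FAP markers of 3639 CPM, against 10967 to 16922 CPM in the other libraries, and mesothelial markers of 2120 CPM, against 0 to 211 CPM. Results on visceral FAPs are therefore given with and without that library. In all that follows, a level is the CPM of summed counts of a class in 1 library, and fewer transcripts per nucleus cannot be told apart from a different mix of nuclei inside a class.

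All 44 chains had at least 1 UMI, 145834 UMIs in all, and 13 chains had under 500 UMIs. The lowest were Col10a1 with 13 UMIs and Col2a1 with 69 UMIs, chains of hypertrophic and of hyaline cartilage. Col4a1 had the highest total, 15656 UMIs, a count not scaled to gene length.

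FAPs carried the largest share of collagen UMIs of the classes compared with at least 20 nuclei per library. Collagen chains made up 2.81% and 2.83% of FAP UMIs in SAT_2M, 1.32% and 2.53% in SAT_24M, and 0.862% and 0.659% in VAT_24M. In adipocyte nuclei the share was 0.130% and 0.114% in SAT_2M, 0.191% and 0.379% in SAT_24M, and 0.208% and 0.416% in VAT_24M. The age groups of subcutaneous adipocytes did not overlap, and neither did those of FAPs, with opposite order. The share in adipocytes was 0.285% ± 0.133 (SD, n = 2) at 24 months and 0.122% ± 0.011 (SD, n = 2) at 2 months. An exact two-sided permutation test gave p = 0.33 for the difference, which is the smallest p that 2 against 2 libraries allow. T cells, which are not a known source of collagen, had 0.021% to 0.055% in the 5 libraries with at least 20 such nuclei, and their levels are given below for reference. What those UMIs stem from was not tested.

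**Figure D1:**
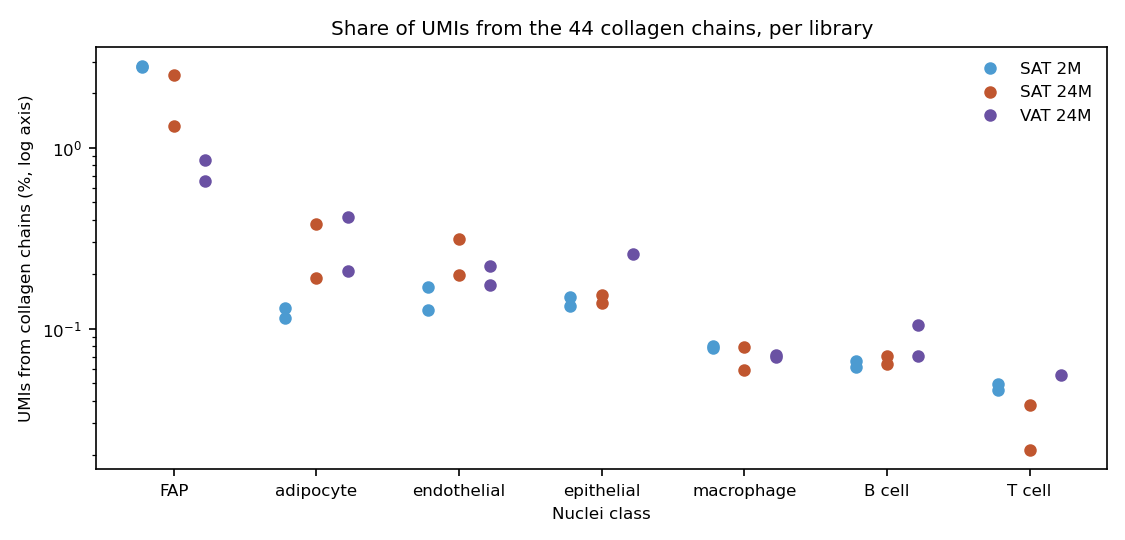
Share of UMIs from the 44 collagen chains (percent, log axis) in each class, 1 point per library with at least 20 nuclei of the class, coloured by group. FAP points lie between 0.659% and 2.83%, the adipocyte points between 0.114% and 0.416% with the SAT_2M libraries lowest, and the T cell points at or below 0.055%.

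The levels of single chains differed between classes, and several chains were shared by several classes. The fibrillar chains Col3a1 and Col1a2, of types III and I, reached means over 6 libraries of 3781 and 3544 CPM in FAPs, against 91.0 and 58.5 CPM in adipocyte nuclei and 22.9 and 27.8 CPM in T cells (5 libraries). Col4a1, a chain of the basement membrane network, had 1188 CPM in FAPs, 408 CPM in adipocyte nuclei, 499 CPM in endothelial nuclei and 23.4 CPM in T cells. Col4a5 and Col4a6, type IV chains of other basement membranes, were 375 and 334 CPM in epithelial nuclei (5 libraries), 440.5 and 324 CPM in mesothelial nuclei (2 libraries), and 8.1 and 12.0 CPM in adipocyte nuclei. Col8a1, a short chain network collagen, had a mean of 153 CPM in endothelial nuclei and 6.8 CPM in adipocyte nuclei, but its endothelial level ran from 20.8 to 413 CPM between libraries. These levels compare 1 gene between classes and are a description, since the classes come from the same nuclei.

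**Figure D2:**
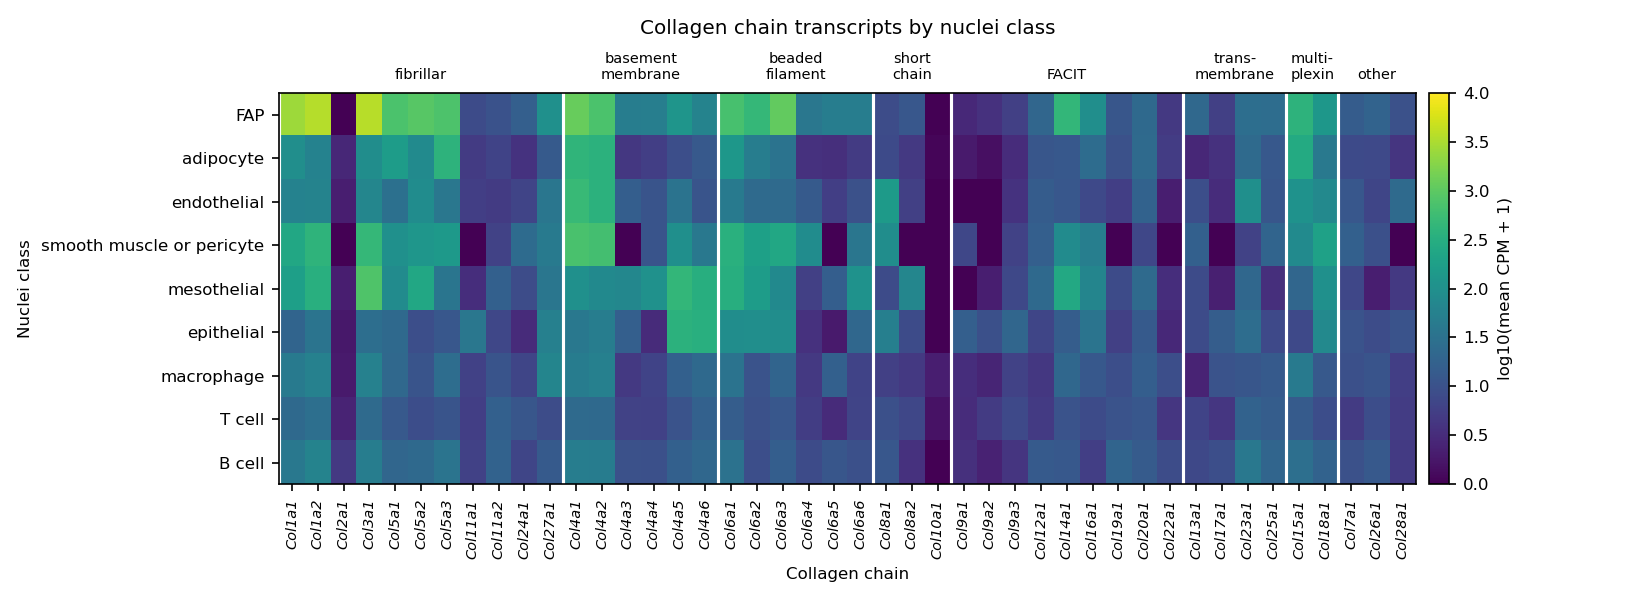
Mean level of each chain (columns, grouped by structural family) in each class (rows), as log10 of the mean CPM over libraries with at least 20 nuclei plus 1. FAPs are brightest for Col3a1, Col1a2 and Col1a1, and Col4a5 with Col4a6 are brightest in mesothelial and epithelial nuclei.

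Genes of the type IV chains lie in head-to-head pairs, read away from each other. Col4a1 and Col4a2 on chromosome 8 have annotated gene starts 355 bases apart, Col4a3 and Col4a4 on chromosome 1 158 bases apart, and Col4a5 and Col4a6 on chromosome X 1282 bases apart (GRCm39, GENCODE M39). The Col4a1 and Col4a3 pairs overlap at their starts, and the sources used here do not give the strand setting of the counting. The windows below run from 250 bases before to 50 bases after the RefSeq start of 4 type IV chains whose levels are compared below, shown because the chains of each pair are read away from each other from neighbouring starts (RefSeq, GRCm38.p6). Capitals mark CCAAT (or its reverse ATTGG) and GGGCGG (or its reverse CCGCCC), known as the CCAAT box and the GC box.
Col4a1, chr8:11312777-11313076, minus strand: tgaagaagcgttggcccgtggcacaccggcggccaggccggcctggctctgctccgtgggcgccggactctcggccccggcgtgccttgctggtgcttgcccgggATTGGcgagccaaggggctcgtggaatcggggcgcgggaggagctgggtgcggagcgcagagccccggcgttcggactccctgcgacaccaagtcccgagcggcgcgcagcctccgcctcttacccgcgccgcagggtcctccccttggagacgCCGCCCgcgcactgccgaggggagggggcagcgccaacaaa
Col4a2, chr8:11312555-11312854, plus strand: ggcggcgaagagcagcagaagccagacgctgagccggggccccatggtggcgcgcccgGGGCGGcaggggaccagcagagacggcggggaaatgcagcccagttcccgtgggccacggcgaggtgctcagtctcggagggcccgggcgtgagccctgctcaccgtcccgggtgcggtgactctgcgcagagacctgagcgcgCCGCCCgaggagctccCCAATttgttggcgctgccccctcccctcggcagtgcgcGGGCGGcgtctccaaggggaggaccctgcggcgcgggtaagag
Col4a5, chrX:141475169-141475468, plus strand: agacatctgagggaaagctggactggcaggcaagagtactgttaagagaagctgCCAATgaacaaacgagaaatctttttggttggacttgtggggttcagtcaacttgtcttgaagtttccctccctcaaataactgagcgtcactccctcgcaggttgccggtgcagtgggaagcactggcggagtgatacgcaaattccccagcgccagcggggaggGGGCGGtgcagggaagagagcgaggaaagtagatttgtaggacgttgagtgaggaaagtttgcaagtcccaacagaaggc
Col4a6, chrX:141474027-141474326, minus strand: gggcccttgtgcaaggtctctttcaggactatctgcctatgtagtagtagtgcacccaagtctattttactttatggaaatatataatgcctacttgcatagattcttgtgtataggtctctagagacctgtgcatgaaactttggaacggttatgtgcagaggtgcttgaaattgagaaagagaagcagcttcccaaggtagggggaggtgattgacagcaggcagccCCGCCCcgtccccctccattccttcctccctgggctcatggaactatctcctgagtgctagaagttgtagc
The windows of Col4a1 and Col4a2 share 78 bases. These bases hold the GC box marked in the Col4a1 window, which is the same site as 1 of the 3 marked for Col4a2. Of 32851 windows of this length in the table, 37.4% held a CCAAT box and 35.7% a GC box on either strand. A CCAAT box was found in 3 of the 4 windows shown and a GC box in all 4, which is a match of letters only. Of 38 windows of 35 collagen genes, 13 held a CCAAT box and 23 a GC box. The window of Col15a1, not printed here, held neither.

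Some chains differed in level among FAP sub-clusters, and these values are a description with no test. Nuclei that resemble FAP progenitors held Col14a1, a FACIT chain of dense connective tissue, at 712 to 1562 CPM in the 4 libraries with at least 20 such nuclei other than VAT_24M replicate 2, where it was 56.2 CPM. The remaining FAPs held 47.9 to 549 CPM of Col14a1. Col15a1 ran the other way, with 0 to 104 CPM in progenitor nuclei and 167 to 1136 CPM in the remaining FAPs, and so did Col4a1, with 202 to 940 CPM against 421 to 3292 CPM. Within each of the 5 libraries with at least 20 progenitor nuclei, Col15a1 and Col4a1 were lower in the progenitor nuclei. The remaining FAPs matched no subtype list and stayed unnamed. They were not uniform: with libraries pooled, Col14a1 ran from 57.5 to 959 CPM among their 4 sub-clusters, against 769 and 1588 CPM in the 2 progenitor sub-clusters. Col3a1 overlapped between the kinds of nuclei, at 2217 to 4908 CPM against 2044 and 3011 CPM, and so did Col1a2, at 1803 to 7555 CPM against 1824 and 3022 CPM. Among the leading genes of 1 unnamed sub-cluster (263 nuclei) were the mesothelial markers Upk1b, Upk3b and Muc16. Col4a1 was 1761 CPM there and 972 to 1658 CPM in the other unnamed sub-clusters. The part of other cell types in these values was not tested.

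The main comparison asked how the chains of a class differed between subcutaneous fat at 24 and at 2 months. In adipocyte nuclei, 29 of the 44 chains had enough counts for the edgeR quasi-likelihood test. Of these 29, 10 were called higher and 3 lower at an adjusted p under 0.05 (Benjamini-Hochberg over all 12934 genes tested). Over all genes 6.59% were called higher and 7.35% lower, 13.9% in either direction. The median log2 fold change over the 29 chains was -0.72, against -0.0024 over all genes, and 14 of the 29 had a positive value. Col7a1, Col11a1 and Col11a2 reached the minimum level for testing (6.08 CPM, or 10 UMIs in a library of median size) only in the SAT_2M libraries, so that they had to be lower at 24 months. Col8a1, Col14a1, Col19a1, Col25a1, Col26a1 and Col4a5 were also under that level in both SAT_24M libraries, but reached it in SAT_2M and VAT_24M libraries. The median over the other 26 chains, which still include these, was 0.74. The 10 higher chains were Col15a1, Col6a2, Col5a3, Col16a1, Col6a1, Col5a1, Col18a1, Col4a1, Col6a3 and Col4a2, and the 3 lower ones Col25a1, Col11a1 and Col14a1. The 15 chains that were too low to test were Col2a1, Col24a1, Col4a3, Col6a4, Col6a5, Col6a6, Col8a2, Col10a1, Col9a1, Col9a2, Col9a3, Col22a1, Col13a1, Col17a1 and Col28a1. The counts depend on the libraries. Leaving out SAT_2M replicate 2 left 2 called chains, Col15a1 and Col5a1, leaving out SAT_2M replicate 1 left 8, and leaving out SAT_24M replicates 1 and 2 in turn gave 16 and 9. The calls over all genes also fell, from 1803 of 12934 to 493 of 14260 without SAT_2M replicate 2 and 741 of 13890 without SAT_2M replicate 1, and were 1742 of 14996 and 1285 of 14050 without SAT_24M replicates 1 and 2. DESeq2 called 10 of the 29 chains and 1318 of the 12934 genes.

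Col15a1, a multiplexin of basement membrane zones, had the largest rise. Its level in adipocyte nuclei was 33.2 and 18.2 CPM in SAT_2M, 248 and 514 CPM in SAT_24M, and 364.5 and 504.5 CPM in VAT_24M. Both aged libraries of each depot lay above both young libraries. The log2 fold change at 24 against 2 months was 3.98 ± 0.41 (SE), adjusted p = 0.000166 (edgeR). Of adipocyte nuclei, 5.49% and 2.96% held a Col15a1 UMI in SAT_2M, and 29.4% and 52.6% in SAT_24M, at median depths of 1540 to 1957 UMIs. After each nucleus was thinned to 1000 UMIs these were 2.58%, 1.58%, 19.3% and 33.5% (the 2 SAT_2M libraries first). T cells of the same 4 libraries held thinned shares of 1.01%, 0.962%, 0.755% and 1.91% at median depths of 1251 to 1465 UMIs. The rise was not limited to adipocyte nuclei in direction, although edgeR called Col15a1 in no other class. Its log2 fold change with age was 1.68 in the whole immune class, 1.10 in endothelial and 1.79 in epithelial nuclei. In epithelial nuclei Col15a1 reached the minimum level for testing only in SAT_24M, so it had to be higher there. What these values stem from was not tested. Col15a1 was higher in both aged libraries in all 7 of the adipocyte sub-clusters with at least 20 nuclei in each SAT library. These sub-clusters split the nuclei already tested, so this adds no independent support. Col15a1 lies on chromosome 4, from 47207582 to 47313179 on the plus strand (GRCm39, GENCODE M39). In the same annotation Col6a1, Col6a2 and Col18a1 all lie on the minus strand of chromosome 10, with lowest positions at 76543440, 76429660 and 76888012.

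Its relative Col18a1, the precursor of endostatin, was 19.6 and 11.4 CPM in SAT_2M and 43.5 and 69.0 CPM in SAT_24M, without overlap. The log2 fold change was 1.96 ± 0.37 (SE, edgeR adjusted p = 0.00515). Both aged libraries lay above both young ones in all 7 sub-clusters for Col18a1, Col4a1 and Col5a1, in 6 for Col16a1, Col5a3 and Col6a1, in 5 for Col4a2, in 4 for Col6a2 and in 3 for Col6a3. Both lay below in 5 of the 7 for Col25a1, in 4 for Col11a1 and in 2 for Col14a1. The chains had been called in the same nuclei and libraries, so these counts are a description and no further support. In the whole immune class Col18a1 was 4.9 and 6.2 CPM in SAT_2M and 9.6 and 12.2 CPM in SAT_24M, also without overlap, but was not called by edgeR.

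The basement membrane chains Col4a1 and Col4a2, which join in 1 triple helix, moved together. Col4a1 was 218 and 192 CPM in SAT_2M, 401 and 761 CPM in SAT_24M, and 345 and 532 CPM in VAT_24M. Its log2 fold change with age in SAT was 1.65 ± 0.33 (SE, edgeR adjusted p = 0.00696). Col4a2 was 258 and 184 CPM in SAT_2M and 375 and 573 CPM in SAT_24M, with a log2 fold change of 1.25 ± 0.31 (SE, edgeR adjusted p = 0.0201). Without SAT_2M replicate 2 the edgeR adjusted p was 0.23 for Col4a2 and 0.094 for Col4a1, and without SAT_2M replicate 1 it was 0.0605 and 0.0492. T cells held 6.9 to 66.6 CPM of Col4a1 in the 4 SAT libraries, with the highest value in SAT_24M replicate 2.

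The type VI chains form 1 beaded filament unit from Col6a1, Col6a2 and Col6a3, and all 3 rose. Col6a1 was 31.5 and 20.5 CPM in SAT_2M and 73.1 and 179 CPM in SAT_24M, and Col6a2 was 9.2 and 2.3 CPM against 28.3 and 87.2 CPM. Their log2 fold changes were 2.40 ± 0.50 and 3.30 ± 0.70 (SE), with adjusted p = 0.00826 and 0.0092 (edgeR). Col6a3 rose less, from 20.7 and 12.5 CPM to 35.9 and 40.7 CPM, by 1.31 ± 0.34 on the log2 scale (SE, edgeR adjusted p = 0.0267). The call of Col6a3 was lost in 5 of 12 alternatives, and those of Col6a1 and Col6a2 in 1 of 12 each. T cells of SAT_2M held 15.6 and 11.8 CPM of Col6a3 and 5.5 and 5.3 CPM of Col6a2, near the adipocyte levels of those libraries. Col6a4, Col6a5 and Col6a6, chains that can replace Col6a3, were too low to test.

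Of 11 fibrillar chains 9 could be tested. Col5a1 and Col5a3 of type V, a minor collagen that regulates fibril assembly, were called higher and Col11a1 lower, that is 2 and 1 of 9 against 6.59% and 7.35% of all genes. Col11a1 and Col11a2, both among the 9, reached the minimum level for testing only in SAT_2M and had to be lower. Col5a1 was 56.5 and 39.8 CPM in SAT_2M and 165 and 252 CPM in SAT_24M, a log2 fold change of 2.24 ± 0.34 (SE, edgeR adjusted p = 0.00162). Col5a3 was 84.2 and 53.5 CPM in SAT_2M, 173 and 616 CPM in SAT_24M, and 260 and 1134 CPM in VAT_24M, a log2 fold change with age in SAT of 2.64 ± 0.65 (SE, edgeR adjusted p = 0.0201). The libraries of each aged group differed widely for Col5a3. The main fibril chains did not pass the test. Col1a1 was 59.2 and 82.0 CPM in SAT_2M and 48.3 and 223 CPM in SAT_24M, and Col3a1 was 92.9 and 86.5 CPM against 33.1 and 192 CPM, so the groups overlapped for both chains. Col1a2, the partner of Col1a1 in type I collagen, was 74.5 and 96.7 CPM in SAT_2M and 17.2 and 54.5 CPM in SAT_24M, without overlap and with the lower values at 24 months (log2 fold change -1.004 ± 0.454, SE, edgeR adjusted p = 0.16).

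Col16a1, a FACIT chain, was 7.1 and 1.1 CPM in SAT_2M, from 13 UMIs and 1 UMI, and 37.9 and 19.2 CPM in SAT_24M. The log2 fold change was 2.64 ± 0.58 (SE, edgeR adjusted p = 0.0111). It was 4.75 without SAT_2M replicate 1 (edgeR adjusted p = 0.0135) and 2.12 without SAT_2M replicate 2 (edgeR adjusted p = 0.0726), the highest and lowest values over 12 alternatives. T cells held 2.73, 5.33, 4.57 and 12.7 CPM of it in the same libraries, so that the means in SAT_2M were 4.10 CPM in adipocyte nuclei and 4.03 CPM in T cells. The 3 lower chains were all at low levels. Col25a1, a transmembrane chain, was 20.1 and 23.9 CPM in SAT_2M and 3.45 and 2.69 CPM in SAT_24M, with a log2 fold change of -2.72 ± 0.61 and edgeR adjusted p = 0.0119 (SE). T cells of the same libraries held 18.3, 15.1, 5.7 and 6.3 CPM. Col14a1 was 13.6 and 21.6 CPM against 4.8 and 4.1 CPM, a log2 difference of -1.81 ± 0.53 (SE) with adjusted p = 0.0404 in edgeR. Col11a1, a fibrillar chain, was 12.0 and 8.0 CPM against 0.7 and 1.8 CPM, from 22, 7, 1 and 10 UMIs, a log2 difference of -2.64 ± 0.78 (SE) with adjusted p = 0.0432 in edgeR. Col11a1 reached the minimum level for testing only in SAT_2M, so its direction was fixed by the filter. Col25a1 and Col14a1 were under that level in both SAT_24M libraries. The call of Col11a1 was lost in 7 of 11 alternatives (edgeR or DESeq2 adjusted p up to 0.407) and that of Col14a1 in 7 of 12 (up to 0.283). For Col25a1 and Col14a1 the adipocyte levels in SAT_2M were near those of T cells. The summed FAP markers in adipocyte nuclei were 479 and 308 CPM in SAT_2M and 132 and 329 CPM in SAT_24M, all 8 markers detected in each, and the summed immune markers were 479 and 859 CPM against 172 and 126 CPM. Their part in these results was not tested.

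**Figure D3:**
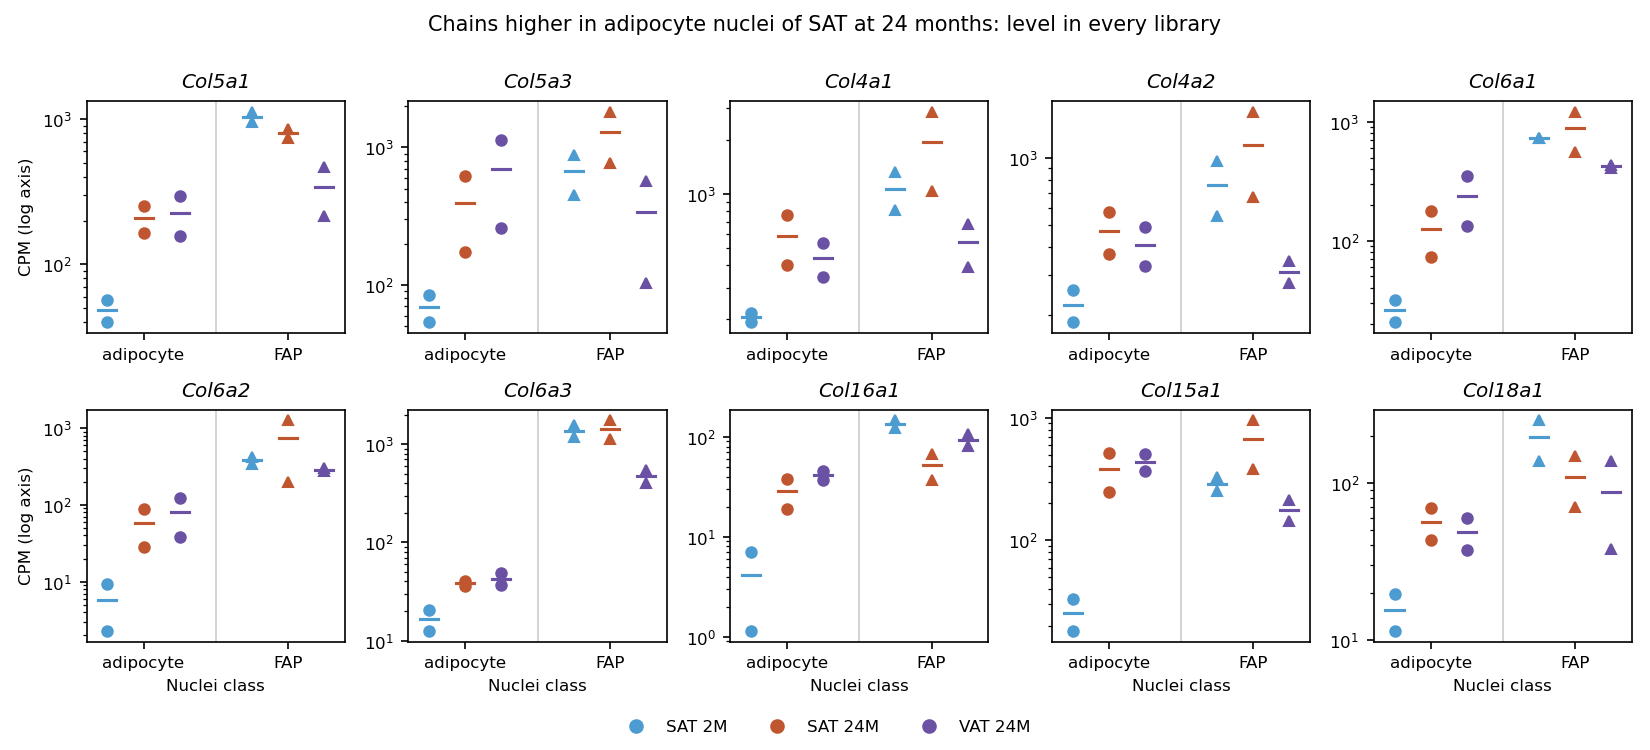
Level (CPM, log axis) of the 10 chains called higher with age in adipocyte nuclei, in adipocyte nuclei (circles) and FAPs (triangles) of every library, with horizontal bars at group means. In adipocyte nuclei both SAT_24M libraries lie above both SAT_2M libraries for all 10 chains, as for Col15a1 with 248 and 514 CPM against 33.2 and 18.2 CPM. The chains were chosen by their call in these same libraries, so this separation is no further support.

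Genes that act on collagen were counted in the same fit. Of 33 genes for chain synthesis and crosslinking, 26 were tested, 6 rose and 2 fell, and for all 4 lists the shares over all genes are the 6.59% higher and 7.35% lower given above. Lox, which starts the crosslinking of collagen and elastin, rose by 2.59 ± 0.59, Serpinh1, a collagen chaperone, by 1.82 ± 0.43, P4ha2, a prolyl hydroxylase subunit, by 1.69 ± 0.28, and Pcolce2, an enhancer of propeptide removal, by 1.68 ± 0.43 (log2 fold change ± SE). Plod2, a lysyl hydroxylase for telopeptide crosslinks, fell by 3.31 ± 0.35 and Adamts3, a propeptidase, by 1.62 ± 0.44 on the log2 scale. Of 11 receptors, 9 were tested and 4 rose, Ddr2 by 1.75 ± 0.34, Itgb1 by 1.64 ± 0.27, Itga1 by 1.46 ± 0.27 and Antxr2 by 0.93 ± 0.28. Itga1 and Itgb1 form an integrin that binds type IV collagen. Of 15 basement membrane partners, 14 were tested and 4 rose, the laminin chain Lama4 by 2.03 ± 0.27, Nid1 by 1.71 ± 0.34, Nid2 by 1.62 ± 0.39 and Lamc1 by 1.40 ± 0.27, while Agrn fell by 1.13 ± 0.30. Nidogens link laminin to type IV collagen. Of 11 fibril partners, 9 were tested and 1 rose, Prelp by 1.29 ± 0.30. The median log2 fold change was 0.93 over the receptors tested, 0.54 over the synthesis genes, 0.41 over the basement membrane partners and -0.13 over the fibril partners, against -0.0024 over all genes tested. In epithelial nuclei with age 24 synthesis genes were tested, 3 rose and 2 fell. Of 14 basement membrane partners tested 1 rose (Lama3, by 1.90 ± 0.28) and 1 fell (Lama5, by 1.28 ± 0.20 on the log2 scale). Of 8 fibril partners 1 rose (Prelp, by 0.96 ± 0.24) and 1 fell (Postn, by 1.78 ± 0.40 on the log2 scale), and of 7 receptors 0 passed, against 3.84% higher and 3.85% lower over all genes. No gene of these lists was called in FAPs, endothelial or immune nuclei with age, where 0 of 8027, 0 of 5198 and 0 of 13895 genes were called, nor in adipocyte nuclei between depots, where 17 of 12934 genes were.

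In FAPs of the same libraries, 27 chains were tested and none was called at an adjusted p under 0.05 (edgeR), as was true of all 8027 genes (0% called). At an unadjusted p under 0.05, 4 of the 27 chains passed, against 10.9% of all genes, and DESeq2 called 0 chains and 9 of the 8027 genes. The median log2 fold change over the 27 chains was -0.38, against -0.026 over all genes. Col1a2 was 6701 and 8373 CPM in SAT_2M and 1835 and 2556 CPM in SAT_24M, without overlap (log2 fold change -1.77 ± 0.65, SE, edgeR adjusted p = 0.38). Col1a1 was 6126 and 5243 CPM against 1537 and 2044 CPM, also without overlap (log2 fold change -1.65 ± 0.65, SE, edgeR adjusted p = 0.40). Col3a1 was 5875 and 6054 CPM against 2281 and 6276 CPM, and these groups overlapped. Col15a1 was 328 and 251 CPM against 384 and 955 CPM (log2 fold change 1.25 ± 0.52, SE, edgeR adjusted p = 0.43). Col6a3 was 1192 and 1559 CPM against 1128 and 1755 CPM, and Col5a2, a partner of Col5a1 in type V fibrils, was 1219 and 1366 CPM against 794 and 1378 CPM, with overlap in both. SAT_24M replicate 1 held only 55 FAPs.

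The age effects of adipocyte nuclei and FAPs were compared in 1 fit with the library as a block. Of the chains tested, 4 differed at an adjusted p under 0.05, against 0.938% of all 11733 genes tested, and all 4 had the higher value in adipocyte nuclei. The difference in log2 fold change was 3.64 ± 0.74 for Col16a1, 3.02 ± 0.59 for Col18a1, 2.83 ± 0.51 for Col15a1 and 2.59 ± 0.59 for Col5a1 (SE, edgeR adjusted p = 0.0186, 0.0141, 0.00929 and 0.0379). Leaving out SAT_24M replicate 1 or replicate 2 left 0 chains called, and leaving out SAT_2M replicate 2 left 2. Over all genes these fits called 5 of 12950, 2 of 13079 and 68 of 12851, against 110 of 11733 with all libraries.

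**Figure D4:**
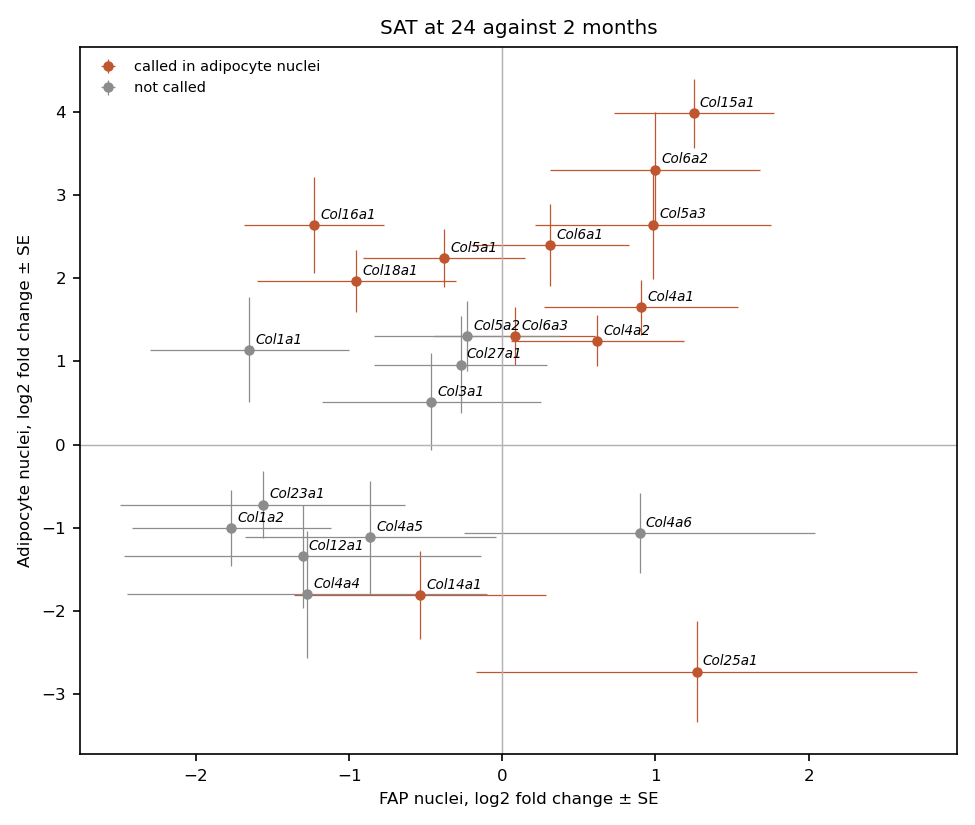
Log2 fold change (± SE) of SAT at 24 against 2 months for each chain tested in both classes, FAPs on the horizontal and adipocyte nuclei on the vertical axis. Chains called in adipocyte nuclei are in orange, and Col15a1 lies highest at 3.98 in adipocyte nuclei and 1.25 in FAPs, while Col16a1, Col18a1 and Col5a1 lie above 0 in adipocyte nuclei and below 0 in FAPs.

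The libraries of both depots at 24 months came from the same 2 mice by the study's text, which does not say which libraries share a mouse. Between depots at 24 months no chain was called in adipocyte nuclei, where 29 were tested and 0.131% of all genes were called (0.0541% higher and 0.0773% lower). At an unadjusted p under 0.05 1 chain passed, 3.45% of those tested against 6.77% of all genes. It was Col14a1, at 4.8 and 4.1 CPM in SAT_24M and 16.5 and 9.3 CPM in VAT_24M (log2 fold change 1.76 ± 0.52, SE, edgeR adjusted p = 0.42). DESeq2 called 0 chains and 30 of the 12934 genes. In FAPs no chain of 27 was called and 0% of all genes were. Of the 27, 12 had an unadjusted p under 0.05, against 6.05% of all genes, and DESeq2 called 1, Col6a5, and 14 of the 8027 genes. Col6a5 and Col4a6 reached the minimum level for testing only in the VAT_24M libraries. Of the 12, the values of Col4a5, Col4a6, Col6a5 and Col6a6 were higher in VAT_24M and those of the other 8 lower. Col1a1 was 1537 and 2044 CPM in SAT_24M and 603 and 279 CPM in VAT_24M (log2 fold change -1.98 ± 0.66, SE, edgeR adjusted p = 0.79). Col15a1 was 384 and 955 CPM against 211 and 143 CPM, and Col4a1 1041 and 2881 CPM against 683 and 390 CPM, both without overlap. The chains higher in visceral FAPs had their highest values in VAT_24M replicate 2. Col6a5, listed at 0 UMIs in both SAT_24M libraries, was 33.1 CPM in VAT_24M replicate 1 and 242 CPM in replicate 2, and Col4a5 was 86.8 and 446 CPM. Without VAT_24M replicate 2 no chain was called and 43 of 9120 genes were, and without VAT_24M replicate 1, 14 chains and 473 of 9560 genes were. Each of these fits left VAT_24M with 1 library, which was assumed to vary like the libraries of the other groups, so that neither measures the spread in visceral FAPs.

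In endothelial nuclei 12 chains were tested and none was called in either comparison (0% of all genes). At an unadjusted p under 0.05, 3 chains passed with age (25% of those tested, against 13.6% of all genes) and 1 between depots (8.33% against 7.27%). Among the 12 chains, Col27a1 reached the minimum level for testing only in SAT_2M, so it had to be lower with age. DESeq2 called 0 chains with age and 1 between depots, and 56 and 23 of the 5198 genes. The make-up of the class differed between libraries. A sub-cluster led by Mmrn1, Ccl21a and Flt4, genes known from lymphatic vessels, held 22 of 41 and 17 of 29 endothelial nuclei in SAT_2M, 10 of 78 and 16 of 254 in SAT_24M, and 22 of 93 and 107 of 179 in VAT_24M. One led by Aqp1, Gpihbp1 and Cldn5, with Gpihbp1 known from capillaries, held 0 and 0 nuclei in SAT_2M, 7 and 102 in SAT_24M, and 21 and 2 in VAT_24M. The part of this mix in the values that follow was not tested. Col4a1 was 259 and 237.5 CPM in SAT_2M and 494 and 948 CPM in SAT_24M, without overlap (log2 fold change 1.78 ± 0.53, SE, edgeR adjusted p = 0.25). Col4a2 was 245 and 216 CPM against 400.1 and 771 CPM (log2 fold change 1.59 ± 0.52, SE, edgeR adjusted p = 0.27). Col23a1, a transmembrane chain, was 25 and 10.2 CPM in SAT_24M and 113 and 337 CPM in VAT_24M (log2 fold change 3.77 ± 0.71, SE, edgeR adjusted p = 0.14). It reached the minimum level for testing only in VAT_24M. When collagen genes were allowed in clustering, only 38.1% of the 674 nuclei kept the endothelial name, and the age comparison could not be run.

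Epithelial nuclei of subcutaneous fat, which sits beside the mammary gland, could be compared by age only, since VAT_24M held 0 and 23 such nuclei. Of 34 chains tested, 2 rose and 4 fell, against 3.84% and 3.85% of all 12500 genes called higher and lower, 7.69% in either direction. Of the 34, 15 reached the minimum level for testing in 1 group only. For Col1a1 and Col14a1, among the 4 that fell, this was SAT_2M, so they had to be lower. Col4a6 was 303 and 274 CPM in SAT_2M and 489 and 539 CPM in SAT_24M (log2 fold change 0.82 ± 0.18, SE, edgeR adjusted p = 0.0112). Col4a5 was 295 and 259 CPM against 486 and 428 CPM (log2 fold change 0.70 ± 0.18, SE, edgeR adjusted p = 0.028). The call of Col4a6 was lost in 4 of 12 alternatives (edgeR or DESeq2 adjusted p up to 0.188) and that of Col4a5 in 5 of 12 (up to 0.384). T cells held 2.3 to 15.9 CPM of these chains in the same libraries. Col6a3 fell from 249.5 and 133 CPM to 13.1 and 21.5 CPM (log2 fold change -3.44 ± 0.33, SE, edgeR adjusted p = 2.38e-05). T cells held 15.6, 11.8, 4.6 and 15.9 CPM of it. The make-up of the class also differed with age. The 2 sub-clusters led by Areg, whose nuclei held 5.67 and 4.32 times the median UMIs of their own libraries, made up 33.4% and 27.0% of epithelial nuclei in SAT_2M and 15.2% and 18.9% in SAT_24M. A sub-cluster led by Fcgbp, Csn3 and Ltf, genes of secreted proteins, made up 12.2% and 7.58% in SAT_2M and 28.9% and 22.1% in SAT_24M. The part of this mix in the epithelial values was not tested.

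Of the other 3 chains that fell, 2 lay near the T cell level in every SAT library. Col1a2 was 61.4 and 57.6 CPM in SAT_2M and 6.1 and 8.7 CPM in SAT_24M, and T cells of the same libraries held 54.5, 56.6, 6.9 and 9.5 CPM. Col1a1 was 32.6 and 46.9 CPM against 4.0 and 10.1 CPM, beside 53.4, 36.2, 8.0 and 6.3 CPM in T cells, and Col14a1 was 32.6 and 20.3 CPM against 9.1 and 8.7 CPM, beside 11.3, 12.6, 4.6 and 9.5 CPM in T cells. The log2 fold changes were -2.97 ± 0.35, -2.38 ± 0.45 and -1.60 ± 0.45 (SE), with edgeR adjusted p = 0.000139, 0.00501 and 0.0466. The call of Col14a1 was lost in 5 of 11 alternatives, that of Col1a1 in 2 of 12 and that of Col1a2 in 0 of 12. Col1a1 and Col14a1 reached the minimum level for testing only in the SAT_2M libraries. The part of RNA from other cells in these levels was not tested. DESeq2 called 2 of the 34 chains and 209 of the 12500 genes. Leaving out SAT_2M replicate 1 left 3 called chains, with 461 of 12063 genes called, and leaving out SAT_2M replicate 2 left 2, with 321 of 12579 genes called. When collagen genes were allowed in clustering, only 26.9% of these nuclei kept the epithelial name, and 3 chains and 404 of 9117 genes were called.

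In immune nuclei 36 chains were tested and none was called in either comparison (0% of all genes). At an unadjusted p under 0.05, 3 passed with age (8.33% of those tested, against 9.57% of all genes) and 7 between depots (19.4% against 5.87%). DESeq2 called 1 chain with age and 0 between depots, and 136 and 18 of the 13895 genes. The mix of T cells, B cells and macrophages differed between libraries. Among macrophages Col27a1, a fibrillar chain of cartilage, was 152 and 101 CPM in SAT_2M, 73.8 and 22.7 CPM in SAT_24M, and 5.6 and 35.1 CPM in VAT_24M. Mesothelial nuclei could not be compared, since the SAT libraries held 5 to 16 of them. In VAT_24M they held Col4a5 at 454 and 427 CPM, and a group of 1301 nuclei found in VAT_24M replicate 2 with similar markers held Col6a1 at 752 CPM and Col4a5 at 640.5 CPM.

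The shares of the chains of a pair varied between libraries, most widely where few UMIs were counted. Col4a1 made up 45.9% and 51.1% of the UMIs of the Col4a1 and Col4a2 pair in adipocyte nuclei of SAT_2M, 51.7% and 57.1% in SAT_24M, and 51.2% and 51.9% in VAT_24M. In FAPs it made up 57.6% to 66.4%, in epithelial nuclei of the 4 SAT libraries 50.4% to 66.7%, and in mesothelial nuclei of VAT_24M 64.1% and 46.3%. Col4a5 made up 44.2% to 49.8% of the UMIs of its pair with Col4a6 in epithelial nuclei of the 4 SAT libraries, and 55.2% and 60.5% in mesothelial nuclei of VAT_24M. It made up 16.7% to 63.6% in adipocyte nuclei and 55.6% to 85.7% in FAPs. Col4a3 made up 16.7% to 100% of the UMIs of its pair with Col4a4 in FAPs, and 25% to 56.5% in adipocyte nuclei.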

How the data were processed

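Single-nucleus libraries were prepared with GEXSCOPE chemistry and the authors deposited UMI counts per gene and barcode, made with Celescope against GRCm39. The version, annotation release, strand setting and use of intron reads are not given in the sources used here. Nuclei over 1000 UMIs and 500 genes with under 15% mitochondrial UMIs were kept. They were clustered without collagen genes (1000 variable genes, 30 components, Harmony correction by library, Leiden resolution 2), and classes were named from marker lists by a rule settled after the clusters were seen. Counts were summed per library and class, with at least 20 nuclei in both libraries of each compared group, and tested in 1 fit of all libraries with edgeR 4.0.16 (TMM, filter on low counts, quasi-likelihood, two-sided, Benjamini-Hochberg over all genes tested). The 23 epithelial nuclei of VAT_24M replicate 2 entered that fit. The SE was the log2 fold change divided by the square root of F. DESeq2 1.42.0, other filters, scalings, depth limits, collagen genes in clustering, a replicate block and leaving out each library were alternatives. The fit was tested on simulated data. Depth limits the precision of low chains, and intervals were not computed. Scrublet called 0.0519% to 0.562% of nuclei as doublets, so its calls were not used and doublets remain. Values are given for every chain called, for up to 6 chains of highest mean level per class, and for the called genes of each list with the largest changes, up to 4 per direction. Others, such as Col27a1, Col23a1 and Col6a5, were named after their values were seen. The members and lists were chosen with earlier results of these data known. By the study's text both depots were taken from 2 mice of each age, so both groups at 24 months share mice. No source ties a library to a mouse, and p-values measure the spread between these libraries.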

Additional observations from a re-analysis of the deposited data

Results flagged for a closer look

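The age effect in subcutaneous fat differed between adipocyte nuclei and FAPs for 4 chains by an interaction test in edgeR, with 110 of 11733 genes called. These calls depended on single libraries, as given above. Col16a1 rested on 13 UMIs and 1 UMI in adipocyte nuclei of SAT_2M. The log2 fold change was higher in adipocyte nuclei by 2.83 for Col15a1, by 3.02 for Col18a1, by 3.64 for Col16a1 and by 2.59 for Col5a1. Groups of 2 libraries allowed no search for single libraries far from the rest.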

How the results depend on the processing

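The counts of called chains were recomputed under each alternative, one choice at a time. In adipocyte nuclei with age the count ran from 2 to 16 when 1 library was left out. In epithelial nuclei it ran from 2 to 8 and was 2 by DESeq2 and 3 with collagen genes allowed in clustering. In FAPs between depots it ran from 0 to 14, was 1 by DESeq2 (14 of 8027 genes) and 4 without a filter on low counts (154 of 25622 genes). In adipocyte nuclei between depots it ran from 0 to 2 over the alternatives. Genes called moved too, from 17 of 12934 in the main fit to 151 of 33829 without the filter. In endothelial nuclei it was 1 with age without the filter (202 of 21685 genes), and between depots 1 by DESeq2 (23 of 5198 genes), 1 without the filter (101 of 21685 genes) and 0 to 2 when 1 library was left out. In immune nuclei with age it was 1 by DESeq2 (136 of 13895 genes) and 4 without the filter (776 of 36820 genes). The number of chains with different age effects in adipocyte nuclei and FAPs also changed when 1 library was left out. So did the number of genes called. The causes were not tested. Of single called chains, 186 values stayed past the threshold, 60 no longer passed and 0 reversed. Differences in the share of collagen UMIs, in percentage points, turned sign when 1 library was left out: adipocyte nuclei between depots -0.0773 to 0.131 (-0.0674 without SAT_24M replicate 1), endothelial nuclei between depots -0.114 to 0.00165, immune nuclei with age -0.0174 to 0.00909, epithelial nuclei with age -0.00285 to 0.0131 (-0.00273 without SAT_2M replicate 2). With the replicate number as a block, 12 chains (2069 of 12934 genes) were called in adipocyte nuclei and 6 (1425 of 12500 genes) in epithelial nuclei with age, and 0 in the other comparisons, where 0 to 28 genes were called. Both depots at 24 months came from the same 2 mice, but no source says whether a number marks a mouse, and the correlation of same-numbered deviations between groups ran from -0.526 to 0.201, so the numbers were not taken as pairs. A crossed numbering between depots, added after seeing the data, called 0 chains in endothelial and immune nuclei and was not run in the other classes. Removal of Scrublet doublet calls was not run. Removal of the 6% of nuclei with the highest scores was also added after seeing the data. It gave 13 called chains in adipocyte nuclei with age (1855 of 12858 genes). With nuclei over 1500 UMIs, the tests in FAPs and of age in endothelial nuclei could not be run, nor could the latter with collagen genes allowed in clustering.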
